A study of Mus musculus with 12 samples.

Results

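Metallothioneins are small cysteine-rich proteins that bind zinc and copper, and 5 genes of this system were followed in mouse macrophages on their way to osteoclasts, the cells that resorb bone. They are Mt1 and Mt2, the widely expressed metallothioneins, Mt3, a metallothionein best known from the brain, Mtf1, the zinc-sensing transcription factor, and Slc30a1, the zinc exporter ZnT1 of the cell surface. The members were taken by gene symbol, and all 5 of 5 were found among 16570 genes of the deposited table. They were chosen by what the read counts of all 12 libraries had shown, so their levels and fold changes are given as descriptions, with no p-value. All 5 passed the filter on low counts.

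Cells were bone marrow-derived macrophages from C57BL/6J mice aged 6 to 8 weeks. There were 3 libraries in each of 4 groups. The first group had M-CSF, RANKL and 1 µM RHC80267, a compound known to block diacylglycerol lipase. The second had M-CSF, RANKL and 1 µM BMS309403, a compound known to block FABP4, a carrier of fatty acids. The third had M-CSF and RANKL, and the fourth had M-CSF alone. M-CSF, the survival factor of macrophages, was at 50 ng/mL in all groups, so no group lacks it and its own effect cannot be read. RANKL, the cytokine that drives osteoclast formation, was at 100 ng/mL, and the M-CSF cultures are the baseline for it. All were treated for 2 days. The groups are called RHC80267, BMS309403, RANKL and M-CSF here. The labels do not say whether the libraries of a group came from separate mice or cultures, so a p-value weighs a difference against a spread between libraries that may be technical.

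In textbook accounts, free zinc makes MTF1 enter the nucleus and bind metal response elements, short sequences in the promoters of Mt1, Mt2 and Slc30a1. Metallothionein then holds zinc in the cell while ZnT1 carries it out, and glucocorticoids also induce Mt1 and Mt2. Zinc transporters fall into a pair of families, the ZnT proteins, which move zinc out of the cytosol, and the ZIP proteins, which move it in.

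Total expected counts were 17760844 to 17936609 per library with RHC80267, 17939971 to 18344989 with BMS309403, 17885762 to 18145377 with RANKL and 18097537 to 18193362 with M-CSF. The 8 osteoclast markers checked the labels. Their summed level was 15334 to 17318 CPM (counts scaled to library size) with RHC80267, 6267 to 7102 with BMS309403, 7713 to 9590 with RANKL and 115 to 136 with M-CSF. The 8 macrophage markers summed to 6742 to 6782 CPM with RHC80267, 7586 to 7911 with BMS309403, 7106 to 7285 with RANKL and 10207 to 10723 with M-CSF. Markers of other cells were summed as well. The 8 neutrophil markers summed to 672 to 1003 CPM there, 1470 to 1583 with BMS309403, 1420 to 1626 with RANKL and 1075 to 1550 with M-CSF, and the 8 stromal markers to 24.1 to 66.4 CPM with RHC80267, 17.2 to 21.1 with BMS309403, 16.7 to 26.4 with RANKL and 18.8 to 25.1 with M-CSF. The 5 T cell markers of the table summed to 43.8 to 50.3 CPM with RHC80267, 115 to 127 with BMS309403, 77.0 to 97.1 with RANKL and 39.2 to 40.8 with M-CSF, with Cd3e and Cd3g at 0 with BMS309403 and Cd3d at 0 with M-CSF. The 6 dendritic cell markers summed to 21.3 to 25.6 CPM with RHC80267, 33.4 to 34.7 with BMS309403, 34.9 to 39.2 with RANKL and 27.9 to 40.2 with M-CSF. The 6 B cell markers summed to 9.07 to 10.7 CPM with RHC80267, 10.8 to 11.8 with BMS309403, 10.8 to 11.5 with RANKL and 14.4 to 15.5 with M-CSF, and the 6 erythroid markers to 0.323 to 1.04 CPM with RHC80267, 0.839 to 0.948 with BMS309403, 1.05 to 1.4 with RANKL and 0.618 to 1.06 with M-CSF. The neutrophil, T cell, dendritic, B cell and erythroid sums of the RHC80267 libraries lay below those of the RANKL libraries, and the stromal sums overlapped. Of 6 stromal markers tested with edgeR, 3 were higher and 1 lower with RHC80267 than with RANKL (adjusted p below 0.05). Their median log2 fold change was 1.35, and 49.9% of all genes changed in that comparison. The part of these markers in the results was not tested. Unless said otherwise, CPM values are counts scaled by the library size after TMM, a correction for RNA composition.

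The coding sequences of the metallothioneins are shown because their likeness bears on whether reads of one can be counted for another. Capitals mark cysteine codons (TGC and TGT), the residues that hold the metal, and the sequences are those of GENCODE M21 transcripts on GRCm38, chromosome 8, plus strand.
Mt1 coding sequence: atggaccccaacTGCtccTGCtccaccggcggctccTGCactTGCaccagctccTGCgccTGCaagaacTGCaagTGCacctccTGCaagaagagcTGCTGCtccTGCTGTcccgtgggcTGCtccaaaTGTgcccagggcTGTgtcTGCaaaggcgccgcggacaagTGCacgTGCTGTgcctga
Mt2 coding sequence: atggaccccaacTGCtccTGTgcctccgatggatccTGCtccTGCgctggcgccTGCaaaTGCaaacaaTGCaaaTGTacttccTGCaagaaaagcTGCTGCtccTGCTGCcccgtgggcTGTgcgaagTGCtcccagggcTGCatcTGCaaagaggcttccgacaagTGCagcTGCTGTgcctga
Mt3 coding sequence: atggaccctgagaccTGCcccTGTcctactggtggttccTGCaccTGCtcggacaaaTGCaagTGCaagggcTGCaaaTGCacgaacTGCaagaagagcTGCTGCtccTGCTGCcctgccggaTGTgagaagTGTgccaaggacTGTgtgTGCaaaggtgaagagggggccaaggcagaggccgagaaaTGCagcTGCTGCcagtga
Mt1 and Mt2 each have 61 codons before the stop, and Mt3 has 68. Each has 20 cysteine codons, 32.8% of the codons in Mt1 and Mt2 and 29.4% in Mt3. Mt1 and Mt2 were identical at 79.6% of aligned coding bases, Mt1 and Mt3 at 66.2%, and Mt2 and Mt3 at 67.6%. The longest exact run shared by transcripts was 20 bases for Mt1 and Mt2, 27 for Mt1 and Mt3 and 20 for Mt2 and Mt3. The expected counts of Mt1, Mt2, Mt3 and Slc30a1 were whole numbers in 12 of 12 libraries, and those of Mtf1 in 0 of 12. Over all genes 9.49% to 9.89% of the counts in a library were not whole, so whole counts are the rule.

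The promoters of the metallothioneins and of Slc30a1 are shown because MTF1 is known to act on those of Mt1, Mt2 and Slc30a1. These genes moved together in part only. With RHC80267 against RANKL, Mt2 and Slc30a1 were lower, at −0.30 and −0.66 on the log2 scale, and Mt1 was at −0.05. With RANKL against M-CSF, Mt1 was at 0.25, Slc30a1 at 0.21 and Mt2 at 0.14. Capitals mark the core of the metal response element, searched as TGCACNC and TGCGCNC on both strands, which do not overlap each other here. Each window runs from 250 bases before to 50 after the start used in the RefSeq promoter table (GRCm38.p6), which for Mt1 and Slc30a1 lies inside the span RefSeq gives for the gene.
Mt1 promoter, chr8:94178839-94179138, plus strand: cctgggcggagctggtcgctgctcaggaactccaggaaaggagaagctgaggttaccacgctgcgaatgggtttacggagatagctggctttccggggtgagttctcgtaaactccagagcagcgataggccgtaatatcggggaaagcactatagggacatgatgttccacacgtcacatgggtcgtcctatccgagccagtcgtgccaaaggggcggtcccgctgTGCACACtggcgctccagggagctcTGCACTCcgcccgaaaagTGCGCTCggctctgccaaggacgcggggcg
Mt2 promoter, chr8:94172368-94172667, plus strand: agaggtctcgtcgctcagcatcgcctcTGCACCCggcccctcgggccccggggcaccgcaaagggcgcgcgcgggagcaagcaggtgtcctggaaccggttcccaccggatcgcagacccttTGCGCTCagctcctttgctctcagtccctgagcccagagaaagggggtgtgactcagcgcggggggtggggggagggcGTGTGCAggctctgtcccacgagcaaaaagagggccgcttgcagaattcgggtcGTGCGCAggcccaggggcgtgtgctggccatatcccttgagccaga
Mt3 promoter, chr8:94152357-94152656, plus strand: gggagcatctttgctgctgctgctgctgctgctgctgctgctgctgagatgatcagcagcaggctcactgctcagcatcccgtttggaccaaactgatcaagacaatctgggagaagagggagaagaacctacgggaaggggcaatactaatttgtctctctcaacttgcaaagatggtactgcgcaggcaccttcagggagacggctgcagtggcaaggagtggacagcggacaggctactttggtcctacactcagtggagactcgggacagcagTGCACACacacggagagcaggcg
Slc30a1 promoter, chr1:191906531-191906830, plus strand: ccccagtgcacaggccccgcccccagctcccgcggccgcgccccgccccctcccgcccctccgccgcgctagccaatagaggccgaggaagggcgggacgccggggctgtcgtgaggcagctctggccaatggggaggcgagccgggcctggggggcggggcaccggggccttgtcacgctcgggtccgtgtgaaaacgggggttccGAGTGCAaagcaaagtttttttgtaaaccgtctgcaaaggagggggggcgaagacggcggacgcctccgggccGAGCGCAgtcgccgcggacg
The Mt1 window held 3 cores, that of Mt2 4, Slc30a1 2 and Mt3 1, and the Mtf1 window held 0. Of 27025 promoters of the same length, 25.6% held at least 1 core, 7.11% at least 2, 2.00% at least 3 and 0.503% at least 4. The 1 match in Mt3 begins at base 28 counted from the start. Matches beginning after the start were also found in Mt1 (bases 3 and 21), Mt2 (base 5) and Slc30a1 (base 31). The other matches in those genes begin before it. A match is a description of letters and shows no binding.

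Mt3 showed the widest range of the 5 genes. It had 529, 484 and 539 counts in the RHC80267 libraries, 148, 133 and 136 with BMS309403, 191, 160 and 154 with RANKL, and 0 in each of the 3 M-CSF libraries. The RHC80267 libraries stood above all others and the M-CSF libraries were all at 0, with no overlap between any of the groups. In a single M-CSF library, a count of 0 allows up to 3 counts, which covers counting error only. By the total expected counts, without TMM, that is 0.165 to 0.166 CPM.

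On the CPM scale Mt3 was at 28.5, 26.4 and 29.3 in the RHC80267 libraries. It was at 8.40, 7.41 and 7.61 CPM with BMS309403 and at 10.4, 8.83 and 8.62 CPM with RANKL. The summed osteoclast markers had the same order of groups, with all 8 higher with RHC80267 than with RANKL by the test, and in bulk RNA fewer cells of a type and less RNA per cell cannot be told apart. The part of the osteoclast markers in the Mt3 and Slc30a1 values was not tested.

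**Figure D1:**
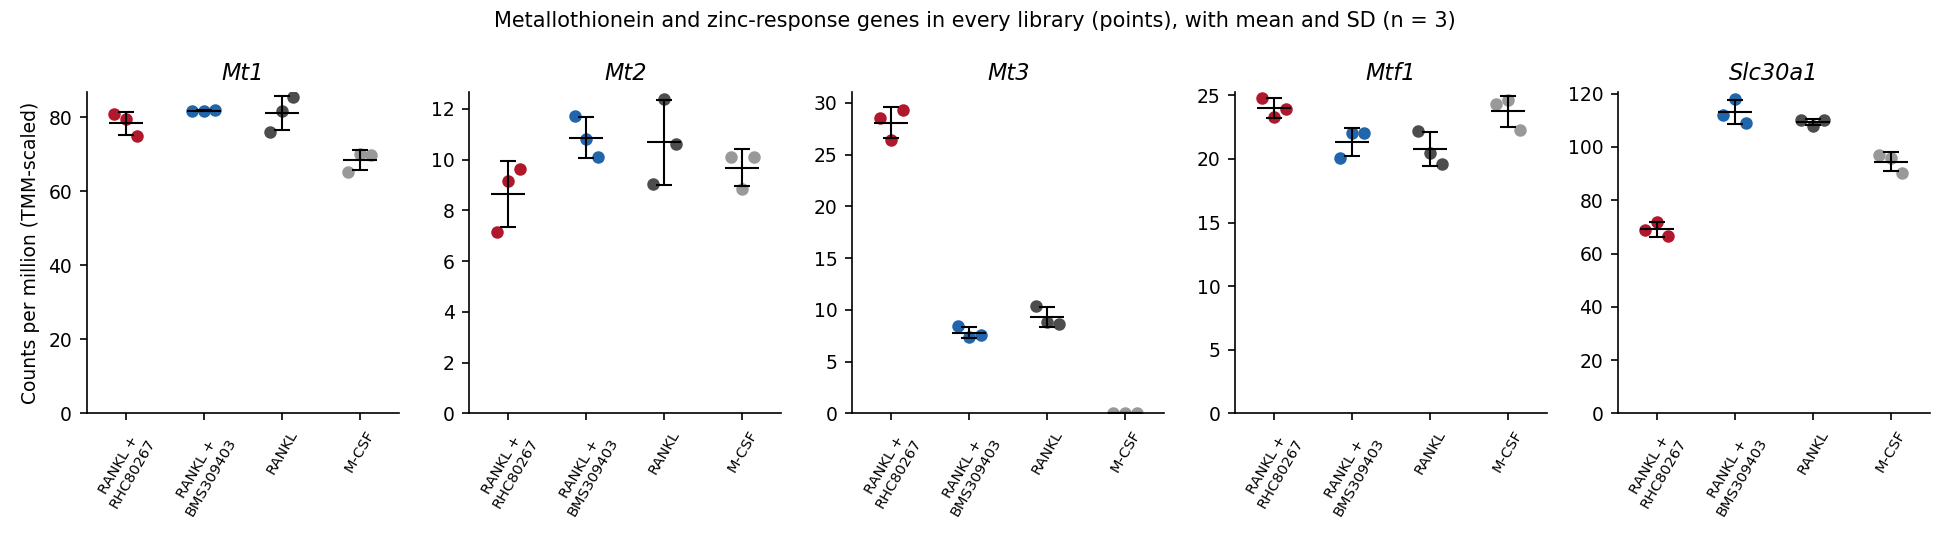
Level of each gene in every library, in CPM after TMM on a linear axis from 0; points are libraries, horizontal lines the mean and bars the SD of 3 libraries. Mt3 is at 26.4 to 29.3 with RHC80267 and at 0 in the M-CSF libraries, while Slc30a1 is lowest with RHC80267, at 66.4 to 72.0.

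Mt1, the metallothionein with the highest level, moved little. It was at 80.9, 79.5 and 75.0 CPM with RHC80267 and at 81.7, 81.8 and 81.9 CPM with BMS309403. It was at 76.2, 81.8 and 85.5 CPM with RANKL and at 65.3, 70.1 and 69.8 CPM with M-CSF. The M-CSF libraries lay below all others, and the RANKL libraries overlapped those of both inhibitors.

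Mt2, its neighbour and closest relative, was at 7.16, 9.16 and 9.61 CPM with RHC80267 and at 11.7, 10.8 and 10.1 CPM with BMS309403. It was at 9.02, 12.4 and 10.6 CPM with RANKL and at 10.1, 8.83 and 10.1 CPM with M-CSF. RANKL replicate 2 was the highest of all and RHC80267 replicate 1 the lowest. The RANKL group overlapped each of the other groups.

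Slc30a1, the exporter, was at 68.8, 72.0 and 66.4 CPM with RHC80267, the lowest of any group. It was at 112, 118 and 109 CPM with BMS309403, at 110, 108 and 110 CPM with RANKL, and at 97.1, 95.9 and 90.3 CPM with M-CSF. The RHC80267 and M-CSF groups each stood apart from every other group, and the BMS309403 and RANKL libraries overlapped.

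Mtf1, the factor itself, stayed within a narrow band. It was at 24.8, 23.3 and 23.9 CPM with RHC80267, at 20.1, 22.0 and 22.0 CPM with BMS309403, at 22.2, 20.5 and 19.6 CPM with RANKL, and at 24.3, 24.6 and 22.3 CPM with M-CSF. The RHC80267 libraries lay above those of both other RANKL-treated groups.

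Levels of different genes were compared per length, with the authors' FPKM values, which are scaled by transcript length and library size. Mt1 led in every group, with a mean of 352 ± 19.5 FPKM with RHC80267, 352 ± 8.13 with BMS309403, 368 ± 4.85 with RANKL and 299 ± 2.76 with M-CSF (SD, n = 3). The order of the others changed with the group. With RHC80267 Mt3 came second, at 129 ± 5.57 FPKM, ahead of Mt2 at 36.8 ± 5.15, Slc30a1 at 14.5 ± 0.511 and Mtf1 at 3.38 ± 0.115. With BMS309403 Mt2 was at 44.3 ± 3.86 FPKM and Mt3 at 34.3 ± 3.0, and the libraries did not overlap. With RANKL Mt2 was at 45.7 ± 6.90 FPKM and Mt3 at 43.2 ± 6.68, neighbours that did not differ beyond their spread. With M-CSF Mt2 was at 40.2 ± 3.99 FPKM, Slc30a1 at 18.8 ± 0.798 and Mtf1 at 3.19 ± 0.185, and Mt3 was listed at 0.

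Summed over Mt1, Mt2 and Mt3, metallothionein RNA came to 517 ± 14.5 FPKM with RHC80267, 430 ± 13.6 with BMS309403, 456 ± 9.90 with RANKL and 339 ± 4.73 with M-CSF (SD, n = 3). Mt3 made up 24.9% ± 1.4 of that sum with RHC80267, 7.96% ± 0.445 with BMS309403, 9.46% ± 1.48 with RANKL and 0% with M-CSF. Mt1 made up 68.0% ± 1.92 with RHC80267, 81.7% ± 1.02 with BMS309403, 80.5% ± 1.21 with RANKL and 88.2% ± 1.05 with M-CSF. The lowest Mt3 share in an RHC80267 library was 23.4% and the highest in a RANKL library 11.2%.

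**Figure D2:**
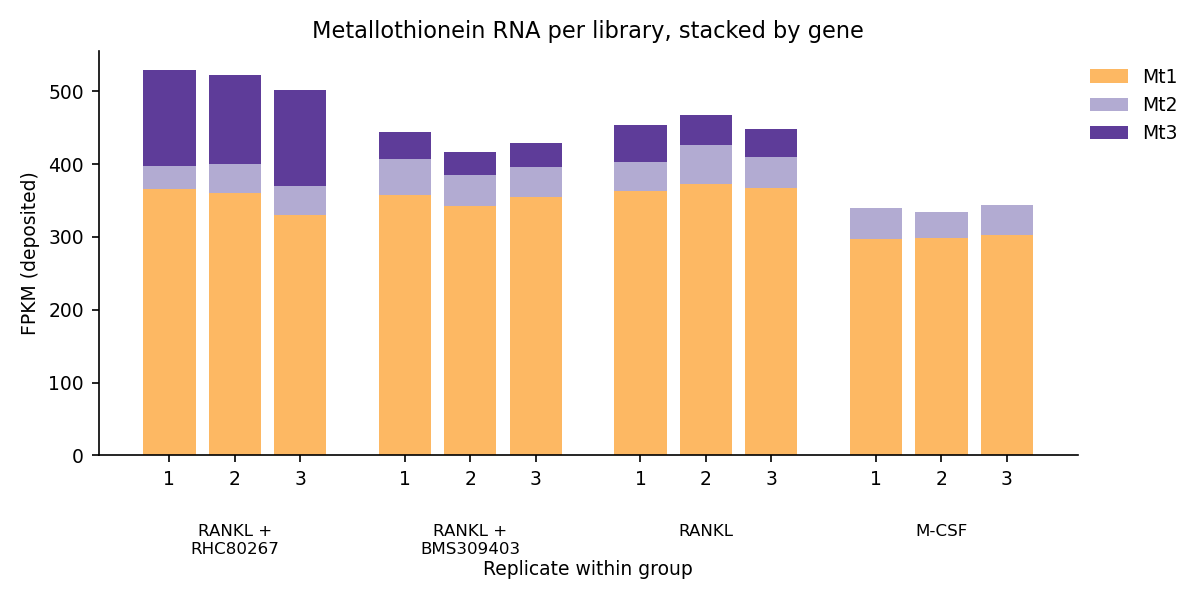
Deposited FPKM of Mt1, Mt2 and Mt3 stacked for each of the 12 libraries, on a linear axis from 0. The stacks reach 501.3 to 529.2 with RHC80267 and 334.4 to 343.7 with M-CSF, and the Mt3 block is 23.4% to 26.2% of the stack with RHC80267.

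Setting RHC80267 against RANKL alone asks what differs when this compound is added to cells given RANKL. The RNA values do not show whether diacylglycerol lipase was blocked. Mt3 was 3.01-fold higher, a log2 fold change of 1.59 ± 0.09 (SE), and Slc30a1 was at 0.632 of its RANKL level, or −0.66 ± 0.04 on the log2 scale. Mtf1 was at 0.21 ± 0.07, Mt1 at −0.05 ± 0.05 and Mt2 at −0.30 ± 0.12 on that scale. Without RHC80267 replicate 1 or RANKL replicate 2 the log2 value of Mt2 was −0.18 and −0.19. Libraries did not overlap for 3 of the 5 genes (Mt3, Mtf1 and Slc30a1), where 57.9% of the 12168 genes tested had no overlap. In that fit 50 genes had a higher log2 fold change than Mt3 and 706 had a lower one than Slc30a1.

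The same comparison was read in other zinc genes, with edgeR's quasi-likelihood test and Benjamini-Hochberg adjustment over all 12168 genes. "Rose" and "fell" are used of genes with an adjusted p below 0.05, and 49.9% of all genes changed in this comparison (26.9% rose and 23.0% fell). Of the ZIP importers 6 of 12 tested rose and 2 fell, with a median log2 fold change of 0.22 against 0.02 over all genes. Slc39a13, which carries zinc in the early secretory pathway, rose by 0.90 ± 0.05 on the log2 scale (adjusted p = 9.56e-12) to 102 ± 3.63 CPM with RHC80267, against 54.9 ± 4.67 with RANKL (SD, n = 3). Slc39a3, a cell surface importer, rose by 0.40 ± 0.06 (adjusted p = 5.78e-06) and Slc39a1, another, by 0.28 ± 0.04 (adjusted p = 9.48e-06). Slc39a4, the importer known from the gut, rose by 0.64 ± 0.10 (adjusted p = 1.88e-05). The 2 that fell were Slc39a14 at −0.37 (adjusted p = 0.00114) and Slc39a6 at −0.22 (adjusted p = 9.89e-04), both cell surface importers. Of the 6 risers, Slc39a7, at 0.10 (adjusted p = 0.0386), lost its call in 7 of 13 alternatives, among them DESeq2 (adjusted p = 0.0692).

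Among the ZnT exporters other than Slc30a1, 2 of 5 tested rose and 1 fell, where 49.9% of all genes changed. The median was 0.06. Slc30a4, a transporter of endosomal vesicles, fell by 0.40 (SE 0.08, adjusted p = 2.46e-04). Slc30a7, which loads zinc into the Golgi, rose by 0.20 ± 0.04 (adjusted p = 6.88e-04) and Slc30a6, of the early secretory pathway, by 0.22 ± 0.06 (adjusted p = 0.00776). The call of Slc30a6 is lost with DESeq2 (adjusted p = 0.0775).

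All 5 of 5 other genes reported elsewhere as MTF1 targets changed, 1 up and 4 down, with a median of −0.29. Of all genes 49.9% changed. Selenow, a small selenoprotein, was at 15.9 ± 0.637 CPM with RHC80267 against 28.7 ± 1.49 with RANKL, a log2 change of −0.85 ± 0.06 (adjusted p = 2.73e-10). Csrp1, a LIM-domain protein, was at −0.29 ± 0.04 (adjusted p = 4.12e-06), and Pgf, a growth factor of the VEGF family, at −1.56 ± 0.27 (adjusted p = 3.96e-05). The level of Pgf was low, 1.23 ± 0.419 CPM with RHC80267 against 3.65 ± 0.304 with RANKL. Ndrg1, a stress-response gene, was at −0.15 ± 0.05 (adjusted p = 0.0155), and DESeq2 did not call it (adjusted p = 0.053). The fifth, Gclc, an enzyme of glutathione synthesis, was at 0.20 ± 0.07 (adjusted p = 0.0193). Leaving out replicate 2 or 3 of RANKL, or replicate 1 of RHC80267, ended this call (log2 values of 0.14, 0.18 and 0.16, adjusted p = 0.138, 0.0611 and 0.084).

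Metallothioneins also bind copper. Of 13 copper genes tested 2 rose and 2 fell, with a median of −0.01, where 49.9% of all genes changed. Steap4, a metalloreductase, rose by 1.42 ± 0.09 on the log2 scale (adjusted p = 1.15e-11) to 54.7 ± 3.47 CPM with RHC80267, against 20.4 ± 3.61 with RANKL. Atp7a, the copper exporter, was at −0.36 ± 0.05 (adjusted p = 3.76e-06), and Slc31a2, a copper transporter of internal membranes, at −0.35 ± 0.05 (adjusted p = 3.02e-06). Cox11, an assembly factor of cytochrome oxidase, was at 0.27 ± 0.09 (adjusted p = 0.0189). Its call is lost with DESeq2 (adjusted p = 0.0801) and without RANKL replicate 3 (adjusted p = 0.0502) or RHC80267 replicate 2 (adjusted p = 0.0725).

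Glucocorticoid-induced genes were read beside Mt1 and Mt2, whose inducers include glucocorticoids. This list was drawn up knowing that Fkbp5 is higher with RHC80267, so it is no independent evidence. With RHC80267, 7 of 10 rose and 0 fell by edgeR, with a median of 1.02, where 26.9% of all genes rose and 23.0% fell. At an unadjusted p below 0.05 the same count of 7 passed, and DESeq2 called 7. Fkbp5, a chaperone of steroid receptors, was at 65.7 ± 3.90 CPM with RHC80267 against 12.7 ± 1.32 with RANKL. Tsc22d3, a leucine zipper protein, rose by 1.09 ± 0.05 (adjusted p = 6.77e-13) and Per1, a clock gene, by 1.23 ± 0.07 (adjusted p = 2.76e-12). Nfkbia, an inhibitor of NF-kB, rose by 0.53 ± 0.04 (adjusted p = 8.41e-10). Not called were Sgk1 at −0.06, Dusp1 at −0.10 and Zbtb16 at 0.31 (adjusted p = 0.348, 0.494 and 0.374). Mt1 and Mt2 had the log2 values of −0.05 and −0.30 given above, and a link between them and this list was not tested.

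**Figure D3:**
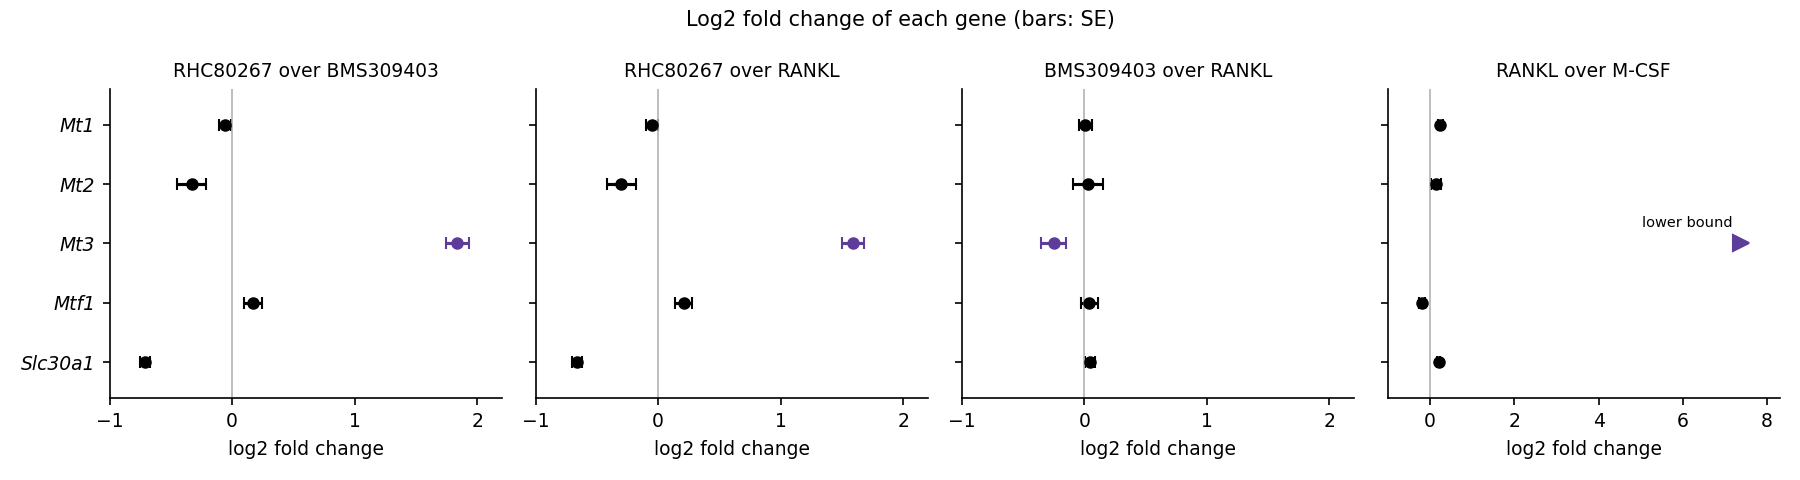
Log2 fold change of the 5 genes in 4 comparisons, with bars for the SE; the arrowhead for Mt3 in RANKL over M-CSF is a lower bound, since the M-CSF libraries had no counts. With RHC80267 over RANKL Mt3 stands at 1.59 and Slc30a1 at −0.66, with Mt1 at −0.05.

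Setting BMS309403 against RANKL alone asks the same of that compound, and the RNA values do not show whether FABP4 was blocked. Differences in the 5 genes were small. Mt3 was at 0.839 of its RANKL level, −0.25 ± 0.10 on the log2 scale, and −0.16 without RANKL replicate 1. Slc30a1 was at 0.05 ± 0.04, Mtf1 at 0.04 ± 0.07, Mt2 at 0.03 ± 0.12 and Mt1 at 0.01 ± 0.05. Libraries did not overlap for 1 of the 5 genes, Mt3, where 23.2% of all genes had no overlap, and its highest BMS309403 library and lowest RANKL library were at 8.40 and 8.62 CPM.

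In this comparison 7.23% of all genes changed by edgeR (3.49% rose and 3.74% fell), and none of the zinc transporters did. The count was 0 of 5 ZnT genes and 0 of 12 ZIP genes, also 0 and 0 with DESeq2. At an unadjusted p below 0.05, edgeR had 2 ZnT and 2 ZIP genes. Among copper genes 2 of 13 fell, Steap4 by 0.45 (SE 0.10, adjusted p = 0.00969) and Steap3, also a metalloreductase, by 0.15 (SE 0.05, adjusted p = 0.0474). Steap4 was at −0.30 without RANKL replicate 1 (adjusted p = 0.103), and the call of Steap3 is lost in 11 of 13 alternatives. Selenow rose by 0.24 ± 0.06 (adjusted p = 0.00979), the only call among 5 reported MTF1 targets, and lost it without RANKL replicate 1 (0.21, adjusted p = 0.0827). Nfkbia fell by 0.15 (SE 0.04, adjusted p = 0.0427), the only call among the 10 glucocorticoid-induced genes, and lost it without RANKL replicate 1 (−0.09) or BMS309403 replicate 2 or 3 (−0.11 and −0.15).

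RHC80267 and BMS309403 were also set against each other at the same 1 µM and 2 days, a comparison that does not use the RANKL libraries as controls. Mt3 was 3.59-fold higher with RHC80267, a log2 fold change of 1.84 ± 0.09. Slc30a1 was at 0.610 of its BMS309403 level, −0.71 ± 0.04, Mt2 at −0.33 ± 0.12, Mtf1 at 0.17 ± 0.07 and Mt1 at −0.06 ± 0.05 on the log2 scale. Without BMS309403 replicate 1 Mtf1 was at 0.10. Without RHC80267 replicate 1 Mt2 was at −0.21. Libraries did not overlap for 5 of the 5 genes, where 61.7% of all genes had no overlap.

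In that comparison 55.5% of all genes changed (30.1% rose and 25.5% fell). Of 12 ZIP genes 7 rose and 1 fell with RHC80267, led by Slc39a13 at 1.03 ± 0.05 (adjusted p = 6.79e-13), Slc39a1 at 0.34, Slc39a3 at 0.38 and Slc39a10 at 0.30, and of 5 ZnT genes 4 rose and 1 fell. Slc39a7, at 0.10 (adjusted p = 0.029), lost its call in 7 of 13 alternatives, DESeq2 among them (adjusted p = 0.0598). The fallen genes were Slc39a14 at −0.28 (adjusted p = 0.00971) and Slc30a4 at −0.42 (adjusted p = 1.26e-04). Of the ZnT risers Slc30a6 was at 0.24 (adjusted p = 0.00344) and Slc30a9 at 0.18 (adjusted p = 0.00144). The calls of Slc30a5 and Slc30a7, at 0.09 and 0.10, are lost with DESeq2 (adjusted p = 0.157 and 0.14), without any 1 of the 3 BMS309403 libraries and without RHC80267 replicate 2 or 3. Slc30a5 loses it also without RHC80267 replicate 1. Of 5 reported MTF1 targets 1 rose and 4 fell, led by Selenow at −1.09 ± 0.06 (adjusted p = 1.80e-12), with Csrp1 at −0.35, Ndrg1 at −0.19 and Pgf at −0.97. The 1 that rose was Gclc at 0.17 (adjusted p = 0.0408), a call lost without any 1 of the BMS309403 libraries and with DESeq2 (adjusted p = 0.061). Of 13 copper genes 4 rose and 3 fell, led by Steap4 at 1.87 ± 0.09 (adjusted p = 1.77e-13), Slc31a2 at −0.49 ± 0.05 (adjusted p = 1.03e-08) and Atp7a at −0.48 ± 0.05 (adjusted p = 3.18e-08). Cox11 rose by 0.39 ± 0.10 (adjusted p = 0.00139). Sco1, a copper protein of mitochondria, at 0.18 (adjusted p = 0.0447), lost its call in 11 of 13 alternatives, DESeq2 among them (adjusted p = 0.15). Commd1, at −0.16 (adjusted p = 0.0133), lost it with DESeq2 (adjusted p = 0.0535) and without RHC80267 replicate 1 (adjusted p = 0.0603), and Cox17, a copper chaperone, at 0.22 (adjusted p = 0.0113), without BMS309403 replicate 3 (adjusted p = 0.0986). Of the 10 glucocorticoid-induced genes 7 rose and 0 fell by edgeR, with 8 at an unadjusted p below 0.05 and 7 called by DESeq2. Fkbp5 was at 2.55, Tsc22d3 at 1.01, Per1 at 1.22 and Nfkbia at 0.68 on the log2 scale.

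The comparison of RANKL with M-CSF alone asks what 2 days of RANKL change. Mt3 had 505 counts over the 3 RANKL libraries and 0 over the 3 M-CSF libraries. With the M-CSF group set to 3 counts in all, it was at least 166-fold higher with RANKL, and at least 500-fold with RHC80267 and at least 139-fold with BMS309403 against the same M-CSF libraries. Mt1 was 1.19-fold higher with RANKL, a log2 fold change of 0.25 ± 0.05, and Slc30a1 1.16-fold, or 0.21 ± 0.04. Mtf1 was at −0.19 ± 0.07 and Mt2 at 0.14 ± 0.12, which was 0.01 without RANKL replicate 2 and 0.07 without M-CSF replicate 2. Libraries did not overlap for 4 of the 5 genes (all but Mt2), where 65.7% of all genes had no overlap.

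Of all genes 61.2% changed with RANKL (31.4% rose and 29.8% fell). All 12 ZIP genes tested did, 5 up and 7 down, with a median of −0.16 against 0.00 over all genes. Slc39a13 rose by 1.02 ± 0.06 (adjusted p = 4.20e-12) to 54.9 ± 4.67 CPM with RANKL, against 27.1 ± 0.735 with M-CSF. Slc39a1 rose by 0.47 ± 0.04 (adjusted p = 3.01e-09). Slc39a8, an importer of zinc and manganese, fell by 1.35 (SE 0.14, adjusted p = 1.43e-08) and Slc39a4 by 1.14 (SE 0.10, adjusted p = 9.24e-10). The calls of Slc39a6, Slc39a7 and Slc39a14 were the ones lost most often, and with a library left out 9 to 11 of the 12 were called.

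All 5 other ZnT genes tested changed as well, 3 up and 2 down, where 61.2% of all genes changed. Slc30a6 rose by 0.34 ± 0.07 (adjusted p = 2.11e-04) and Slc30a5, its partner in the early secretory pathway, by 0.20 ± 0.04 (adjusted p = 6.34e-05). Slc30a4 fell by 0.42 (SE 0.07, adjusted p = 3.11e-05) and Slc30a7 by 0.17 (SE 0.04, adjusted p = 0.00204). The fifth, Slc30a9, rose by 0.13 ± 0.04 (adjusted p = 0.0138), but not with DESeq2 (adjusted p = 0.0659) nor when replicate 2 of M-CSF or of RANKL was left out (adjusted p = 0.0596 and 0.0554).

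Of 13 copper genes 8 rose and 2 fell with RANKL, with a median of 0.37, where 61.2% of all genes changed. Of the risers Sco2, a copper protein of mitochondria, at 0.37 (adjusted p = 0.0187), lost its call with DESeq2 (adjusted p = 0.0556) and without M-CSF or RANKL replicate 1 (adjusted p = 0.0924 and 0.121). Steap4 rose by 7.67 ± 0.82 on the log2 scale (adjusted p = 5.55e-16), to 20.4 ± 3.61 CPM with RANKL against 0.0935 ± 0.0858 with M-CSF. Steap3 rose by 1.10 ± 0.05 (adjusted p = 3.20e-14) and Atox1, the chaperone that hands copper to ATP7A, by 0.71 ± 0.05 (adjusted p = 2.74e-11). Atp7a fell by 0.47 (SE 0.05, adjusted p = 1.41e-08) and Slc31a2 by 0.17 (SE 0.05, adjusted p = 0.00245). Of the 5 reported MTF1 targets 2 rose and 2 fell, with Gclc at −1.45 ± 0.06 (adjusted p = 1.21e-14) and Pgf at 4.10 ± 0.54 (adjusted p = 4.53e-09). The others were Ndrg1 at −0.72 (adjusted p = 1.39e-11) and Csrp1 at 0.34 (adjusted p = 2.05e-07). Pgf was at 3.65 ± 0.304 CPM with RANKL against 0.206 ± 0.197 with M-CSF. The M-CSF level of Steap4 lies below that of 3 counts in a library, and that of Pgf near it. The size of both rises is therefore uncertain. Of the glucocorticoid-induced genes 1 of 10 rose, Nfkbia at 0.64 (adjusted p = 3.57e-11), and 6 fell. Cd163, a scavenger receptor of macrophages, fell by 2.44 (SE 0.15, adjusted p = 1.44e-12) to 2.87 ± 0.543 CPM with RANKL, against 15.6 ± 1.09 with M-CSF. Tsc22d3 was at −0.62 (adjusted p = 3.23e-09) and Per1 at −0.69 (adjusted p = 2.47e-08).

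**Figure D4:**
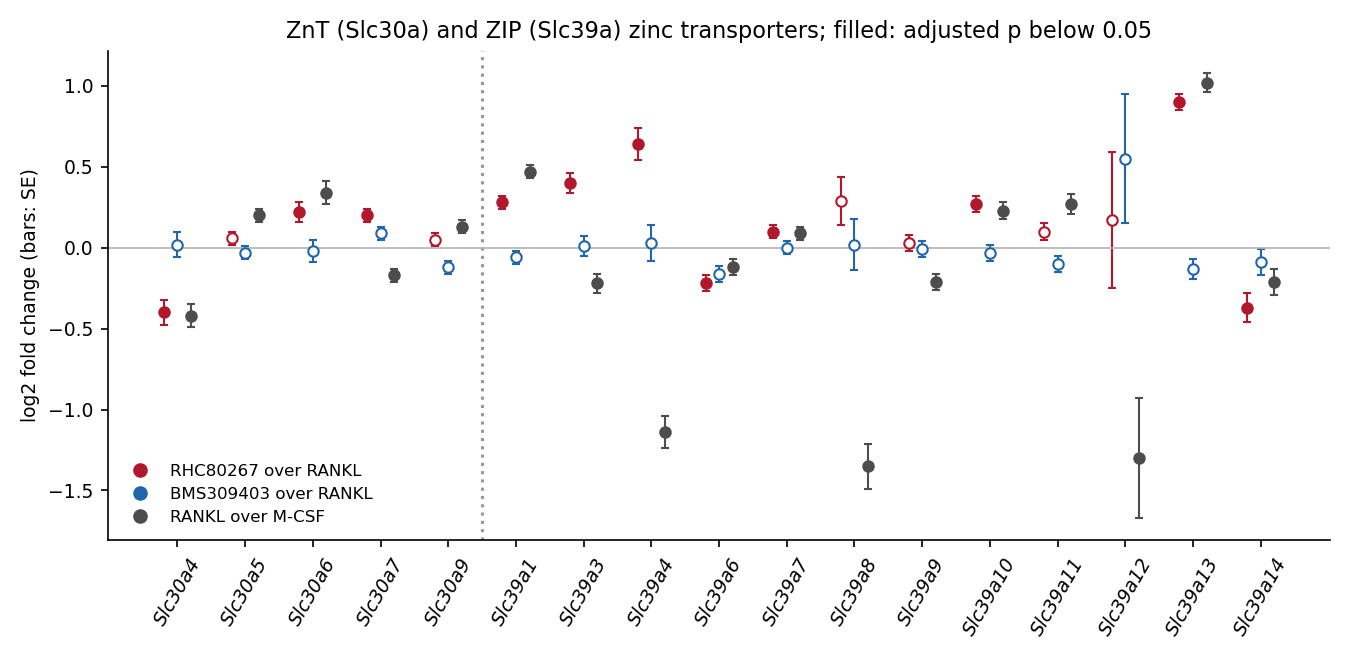
Log2 fold change of the 17 zinc transporters tested other than Slc30a1, with bars for the SE; filled points have an adjusted p below 0.05, and a dotted line parts ZnT from ZIP genes. Slc39a13 stands at 0.90 with RHC80267 and 1.02 with RANKL, and all BMS309403 points are open.

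The metallothioneins lie in a row on chromosome 8, plus strand, of GRCm38, with Mt3 at 94152607 to 94154148, Mt2 at 94172618 to 94173567 and Mt1 at 94178883 to 94180327. Mtf1 lies on chromosome 4 at 124802549 to 124849800, and Slc30a1 on chromosome 1 at 191906697 to 191913248, both by the RefSeq annotation. The genes around the cluster were read to see whether they moved with Mt3, a choice made after its values were known. Of 14 other genes of the table in a window that reached 500 kb to either side of the cluster, 11 were tested. With RHC80267 against RANKL 2 of them rose (Herpud1 and Rspry1) and 2 fell (Nlrc5 and Arl2bp), with 49.9% of all genes changed.

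The tested genes closest to Mt3 on either side, outside the cluster, were Bbs2, a gene of the primary cilium, and Nup93, a nuclear pore gene. Bbs2, whose first base on the map lies at −84.7 kb from that of Mt3, was at 7.52 CPM with RHC80267, 7.96 with BMS309403, 7.90 with RANKL and 8.09 with M-CSF. Nup93, at 62.0 kb from it, was at 52.7 CPM with RHC80267, 44.5 with BMS309403, 48.5 with RANKL and 34.1 with M-CSF. The highest log2 fold change among the 11 with RHC80267 was that of Herpud1, a gene of protein quality control, at 0.62, against 1.59 for Mt3.

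**Figure D5:**
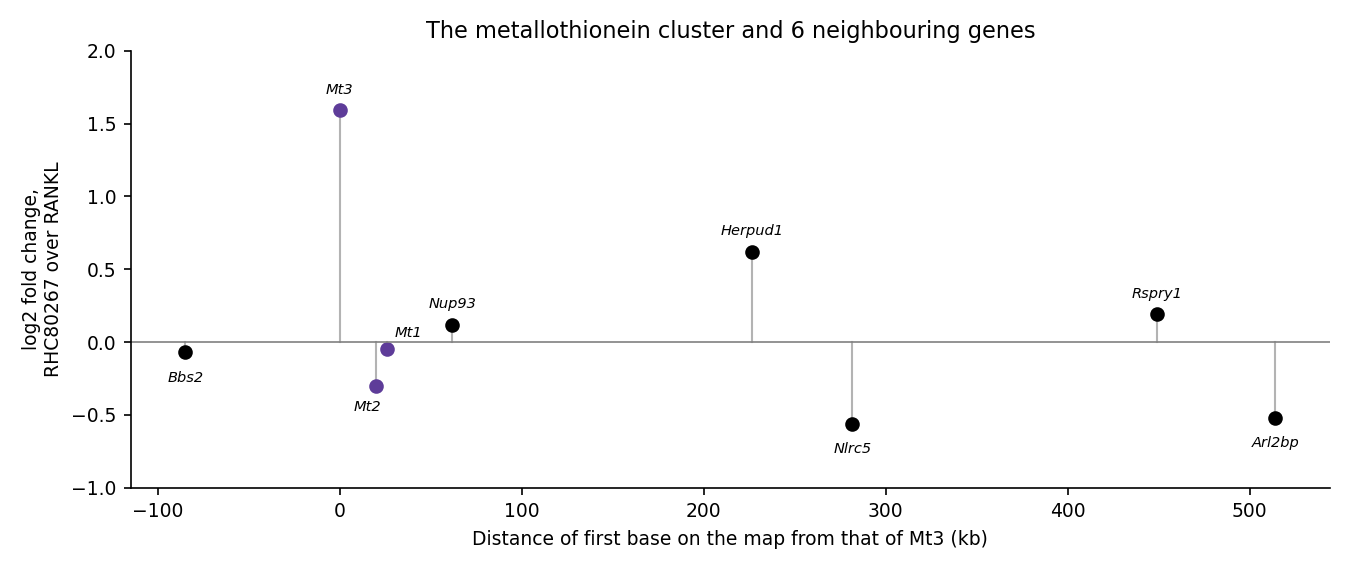
Log2 fold change of RHC80267 over RANKL for the 3 metallothioneins (purple) and the 6 neighbours named in the text (black), by the distance of each gene's first base on the map from that of Mt3 in kb. Mt3 stands at 1.59, Mt2 at −0.30 and Mt1 at −0.05, and these neighbours lie between −0.56 and 0.62.

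Across the 12 libraries the members did not share one pattern. Pearson's r of log2 CPM was 0.81 between Mt1 and Mt3, 0.20 between Mt1 and Mt2, −0.07 between Mt2 and Mt3, and −0.22 between Mt3 and Slc30a1. It was 0.64 between Mt2 and Slc30a1 and 0.21 between Mt1 and Slc30a1. With Mtf1 it was −0.63 for Mt1, −0.76 for Mt2, −0.26 for Mt3 and −0.67 for Slc30a1. These values describe 12 libraries that fall into 4 groups and share their group means.

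The genes most like Mt3 among 10158 ranked by r over the 12 libraries were Kank1 and Myo1d (0.999 each), Htra1, Calcr and Slc45a3 (0.998 each). Calcr, the calcitonin receptor of osteoclasts, was at 87.2 CPM with RHC80267, 18.1 with BMS309403, 21.7 with RANKL and 0.0187 with M-CSF. Myo1d, a motor protein, was at 235 CPM with RHC80267, 87.5 with BMS309403, 110 with RANKL and 2.34 with M-CSF. Kank1, a regulator of the actin cytoskeleton, was at 10.8 CPM with RHC80267, 3.73 with BMS309403, 4.79 with RANKL and 0 with M-CSF. Calcr also serves as one of the 8 osteoclast markers above. All 5 were lowest with M-CSF and highest with RHC80267.

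The genes most like Mt1 were Utp6 (r = 0.968), the ribosomal protein gene Rpl27 (0.961), Sec61g (0.958), Cyba (0.952) and the ribosomal protein gene Rpl17 (0.951). Rpl27 was at 284 CPM with RHC80267, 295 with BMS309403, 292 with RANKL and 244 with M-CSF. Those most like Mt2 were Sys1 (0.90), Nt5dc1 (0.881), Rraga (0.845), Actr10 (0.843) and Blzf1 (0.840). No gene was among the 5 most like more than 1 metallothionein. Over the 9 libraries with RANKL, 0 of the 5 genes most like Mt3 were still among its 5 most alike, and 1 of 5 for Mt1 and for Mt2.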

How the data were processed

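RNA of 12 libraries was read from the authors' deposited table. Per the file headers its columns are read counts and FPKM. In each library 9.49% to 9.89% of the read counts had a fractional part, so the deposited values were read to be RSEM's expected counts. The deposited FPKM values served to compare levels between genes and as an alternative. The submitters' processing notes name Bowtie2, RSEM 1.3.1 and DESeq2 1.4.5, without saying which made which column. The other 24 columns of per-library values were not used. The growth protocol in the labels speaks of 4 days of RANKL, the treatment protocol of 2 days, which was followed.

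Expected counts were rounded, 4402 genes were removed by filterByExpr and 12168 tested, with TMM scaling. All 12 libraries entered 1 edgeR 4.0.16 quasi-likelihood fit (R 4.3.3) with 1 term, the group, which left 8 residual degrees of freedom. The biological coefficient of variation was 0.0371. The fit was tested on simulated data. Fold changes are the first group named over the second, with a Wald SE. For Mt3, at 0 in the M-CSF group, fold changes against it are bounds at 3 counts in its summed libraries, which cover counting error only. Replicate pairs differed beyond sampling noise (chi-square over its degrees of freedom 2.14 to 5.01).

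The members and the gene lists were chosen with earlier results of these data known. Named genes are the 5 members, up to 4 called genes per list with the smallest p, and the 5 genes with the highest correlation of log2 CPM (prior count 2, at least 5 CPM in the highest group) with each metallothionein. Further called genes behind small counts (such as Slc39a14, Sco1 and Gclc) and the neighbours of the cluster were named after their values were seen. So were the uncalled glucocorticoid-induced genes (Sgk1, Dusp1 and Zbtb16). The values of 1 neighbour are not reported here. Lists were the other ZnT genes (9 listed, 5 tested), ZIP genes (14 and 12), copper genes (14 and 13), reported MTF1 targets (5 and 5) and glucocorticoid-induced genes (10 and 10). Promoters are from RefSeq (GRCm38.p6, matched for 5 of 5 members), coding sequences from GENCODE M21, aligned with Biopython 1.88. Alternatives were RLE factors, no filter, at least 1 CPM in 3 libraries, DESeq2 1.42.0, limma-voom (limma 3.58.1), only the groups compared, a replicate block, FPKM with a pseudocount of 0.1 or 1, and each library left out.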

Additional observations from a re-analysis of the deposited data

How the results depend on the processing

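The fold changes of the 5 genes were recomputed under alternatives 295 times in all, and 283 of these values moved by less than the replicate SD. With FPKM and a pseudocount of 0.1, Mt1 was at −0.06 for BMS309403 over RANKL and 0.00 for RHC80267 over BMS309403 (likewise with 1), and in the second comparison Mtf1 was at 0.23 and Slc30a1 at −0.64. With a pseudocount of 1, Slc30a1 was at −0.59 for RHC80267 over RANKL and −0.61 over BMS309403. With a library left out, the log2 bound of Mt3 for RANKL over M-CSF ranged from 6.78 to 7.43 and Mtf1 for RHC80267 over BMS309403 from 0.10 to 0.19. DESeq2, limma-voom, FPKM and the replicate block give no bound for Mt3 against M-CSF. The cause of these shifts was not tested.

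Calls between BMS309403 and RANKL were the least stable. With a library left out, 263 to 1011 genes were called in place of 880, 0 to 2 copper genes, 0 to 1 reported MTF1 targets and 0 to 1 glucocorticoid-induced genes. Without RANKL replicate 1 it was 263 genes, and without BMS309403 replicate 2 it was 316. Copper calls were 1 with DESeq2, and 2 reported MTF1 targets were called with only the groups compared. Glucocorticoid-induced calls by edgeR were 0 with no filter (2 at an unadjusted p below 0.05) and 0 with only the groups compared (1 unadjusted), and 1 with DESeq2. Between RHC80267 and BMS309403, 3 other ZnT genes in place of 5 were called with DESeq2, RLE factors, the filter of at least 1 CPM or only the groups compared, and 3 to 4 with a library left out.

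Same-numbered libraries of different groups did not deviate together (r of −0.092 to 0.0936 over 18 pairs), and 5 of 12 libraries were closest to their own number. The labels give the replicate number no meaning. With the replicate block 1 copper gene was called between BMS309403 and RANKL in place of 2, and 859 genes in place of 880. A low count limits Mt2 and Mt3, with 133 to 225 counts per library outside the RHC80267 and M-CSF groups.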
